A study of Mus musculus with 12 samples.

Results

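10 transcription factor genes of the red cell and platelet lineages were followed across 12 Affymetrix arrays of mouse blood cells. The genes were Gata1, Gata2, Klf1, Zfpm1, Tal1, Lyl1, Nfe2, Gfi1b, Lmo2 and Fli1. Members were taken as the probe sets to which the array annotation gives exactly 1 symbol, equal to 1 of these names, which found 13 probe sets of 45101 on the array, for 10 genes of 10. Gata2, Zfpm1 and Fli1 had 2 probe sets each. All 10 genes passed the filter on low values and were among the 10583 genes tested.

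RNA came from mice that lacked the Stat5a and Stat5b genes (knockouts) and from mice that had them (controls), and each genotype carried a plus or a minus sign in the array title. The 4 groups were knockout plus, knockout minus, control plus and control minus, with 3 arrays each. The treatment protocols tie the plus sign to CMP and the minus sign to its absence, while titles of several arrays carry the letters CMP with either sign. What CMP stands for, how the genes were deleted, the strain, the age and the exact blood cells are not given in the sources used here. The difference between plus and minus arrays is therefore described by its label alone. Array titles are written in 3 styles, each covering 1 array of every group, and arrays of 1 style are referred to as naming set A, B or C. Nothing in the labels says that the 3 arrays of a group came from separate animals or cultures, so p-values measure only the spread between these samples, which may be technical.

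GATA1 and GATA2 are zinc finger proteins that bind GATA sequences, and red cell precursors replace GATA2 by GATA1 on shared sites as they mature. FOG1, the product of Zfpm1, binds GATA1 and is needed for both red cell and platelet formation. GATA1 also sits in a complex with the helix-loop-helix protein TAL1, its partner LMO2 and the adaptor LDB1. KLF1 binds CACC sequences of globin and other red cell genes, FLI1 is an ETS factor of megakaryocytes, the NFE2 protein pairs with small MAF proteins, and GFI1B is a zinc finger repressor. STAT5A and STAT5B carry signals of the erythropoietin and thrombopoietin receptors to the nucleus.

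Klf1, Gata1 and Gfi1b were the members that passed the test in a plus versus minus comparison, and their promoters are shown for the motifs of the factors in question. Sequences are from RefSeq on GRCm38.p6 and run 5′ to 3′ on the gene's strand, with 250 bases before and 50 bases after the annotated start. Capitals mark the GATA motif as AGATAA or TGATAA, the CACC motif as CCNCNCCC and the STAT5 motif as TTCNNNGAA, each searched on both strands. The windows are chr8:84901732-84902031 on the plus strand for Klf1, chrX:7967861-7968160 on the minus strand for Gata1 and chr2:28621933-28622232 on the minus strand for Gfi1b.
Klf1: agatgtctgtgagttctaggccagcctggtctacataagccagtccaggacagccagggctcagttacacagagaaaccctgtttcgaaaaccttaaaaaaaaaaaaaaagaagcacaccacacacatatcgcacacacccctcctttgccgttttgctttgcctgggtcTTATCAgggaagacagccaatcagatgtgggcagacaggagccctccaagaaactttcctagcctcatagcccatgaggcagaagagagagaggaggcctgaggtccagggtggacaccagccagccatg
Gata1: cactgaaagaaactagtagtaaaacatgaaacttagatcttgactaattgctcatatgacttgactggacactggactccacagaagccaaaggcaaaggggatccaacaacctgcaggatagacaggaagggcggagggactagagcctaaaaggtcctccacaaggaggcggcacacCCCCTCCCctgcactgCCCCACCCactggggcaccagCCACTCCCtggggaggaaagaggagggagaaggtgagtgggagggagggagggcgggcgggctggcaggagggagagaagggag
Gfi1b: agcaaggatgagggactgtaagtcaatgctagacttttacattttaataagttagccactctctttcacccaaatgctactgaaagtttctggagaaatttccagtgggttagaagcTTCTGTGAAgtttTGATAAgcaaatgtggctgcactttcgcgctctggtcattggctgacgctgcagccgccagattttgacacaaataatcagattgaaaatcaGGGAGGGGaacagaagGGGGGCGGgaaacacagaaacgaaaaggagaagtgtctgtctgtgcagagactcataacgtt

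The Klf1 window held 1 GATA motif, at position -80 from the start, and no CACC or STAT5 motif. Gata1 held 3 CACC motifs, at positions -71, -55 and -34, and neither of the other motifs. Gfi1b held a STAT5 motif at -133, a GATA motif at -120 and CACC motifs at -28 and -12, none of which overlapped another. The table held 9 windows for 7 of the 10 members. In those 9 windows a GATA motif occurred in 3, a CACC motif in 7 and a STAT5 motif in 1, while of all 32851 windows 18.6% held a GATA motif, 49.5% a CACC motif and 8.3% a STAT5 motif. These are matches of letters and say nothing of binding in these cells.

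The deposited values are MAS5 signals, a linear brightness per probe set, and every array had a trimmed mean of 500. Stat5a measured 28.9 to 90.1 in knockout arrays and 659.7 to 1436 in control arrays, and Stat5b measured 7.28 to 82.8 in knockouts and 1036 to 2177 in controls, so the deletion labels held in all 12 arrays by title. Set B stood apart in how much brighter the 3′ probe set of beta-actin was than the 5′ one, a measure of RNA integrity and labelling, with ratios of 19.7 to 54.8, against 1.19 to 4.4 in sets A and C. In 6 of 6 pairs of 1 set and genotype the ratio was higher in the plus array. The highest ratio, 54.8, was that of the knockout plus array of set B, which was also the lowest of the 12 arrays for 7 of the 10 members and for 22.6% of all genes tested. The leading number of its source label differs from that of its set B partners. The knockout minus array of set B is called a control in its treatment protocol but not in its title. It was kept as a knockout by title, and its Stat5a and Stat5b signals lay in the knockout range.

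In knockouts, 2 of the 10 members were lower in plus than in minus arrays (Klf1 and Gata1), none was higher and 8 did not pass. In controls, Gfi1b was higher, Klf1 was lower and 8 did not pass. A gene is called where limma's p, adjusted over all 10583 genes, is under 0.05, in a fit of log2(signal + 32) with the naming set as a block. Of all genes tested, 18.8% were called in knockouts, 9.03% higher and 9.72% lower, and 22.1% in controls, 10.6% higher and 11.6% lower, so the members' 2 of 10 in each genotype is near the background. The members' median log2 change was -0.70 in knockouts and -0.24 in controls, beside -0.062 and -0.023 over all genes. The members' median in knockouts was -0.33 without the knockout plus array of set B, and without set B it was -0.27 in knockouts and -0.12 in controls. In controls it was 0 without the control minus array of set B, and 0.15 once the fit held the beta-actin ratio as a term. Centring arrays on their medians moved the median of all genes in controls to -0.22 and the share of higher calls to 27.8%, against 47.7% in the deposited scaling. In knockouts that share became 37.5%, against 48.2%.

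**Figure D1:**
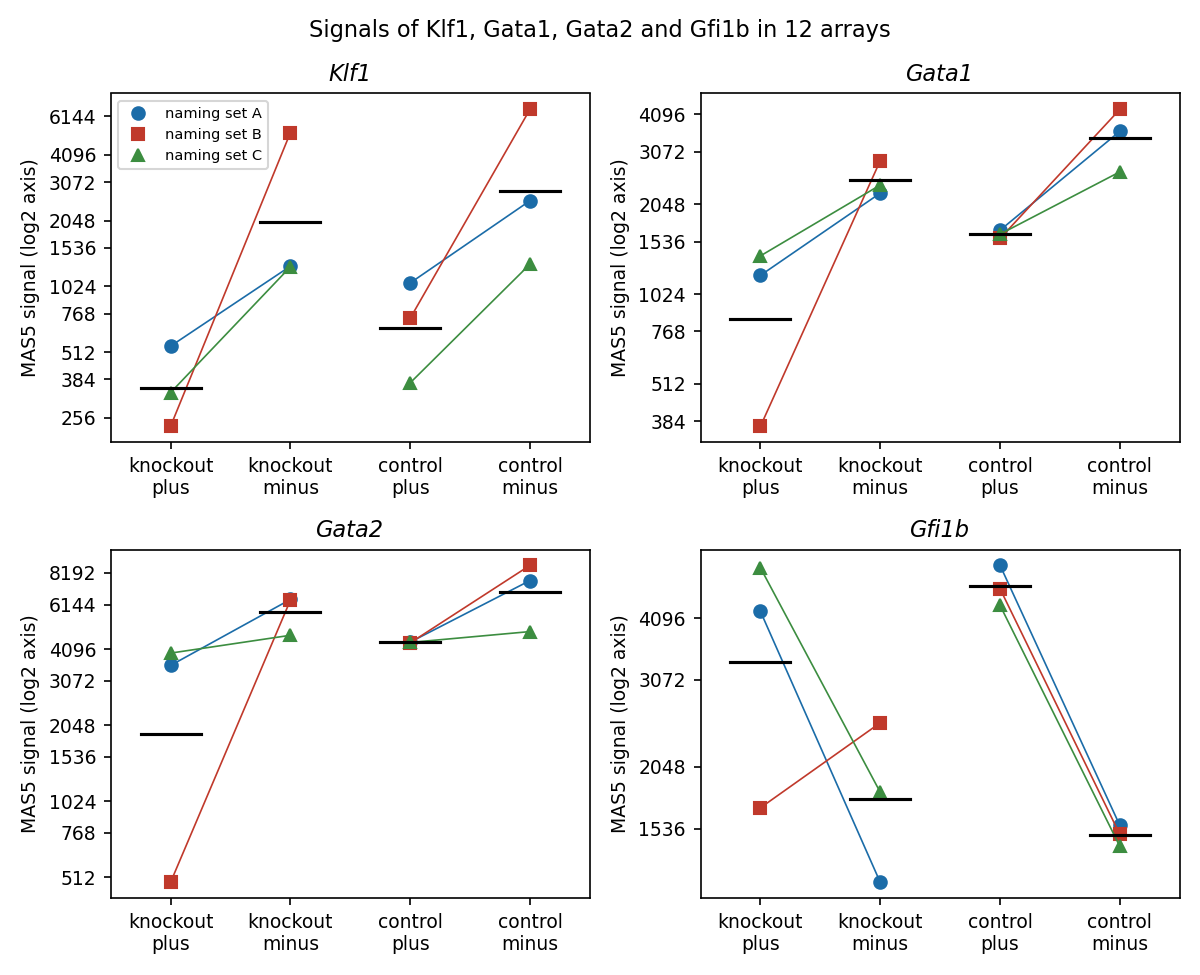
MAS5 signals (log2 axis) of Klf1, Gata1, Gata2 and Gfi1b in the 4 groups, 1 point per array, with lines joining the plus and minus arrays of a naming set and black bars at the geometric mean of 3 arrays. Klf1, Gata1 and Gata2 lie lower in every plus array than in its minus partner, and Gfi1b lies higher in 5 of 6 pairs, with the knockout pair of set B going the other way.

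Gata1, the central red cell and megakaryocyte activator (chromosome X, 7959260 to 7976663, GRCm38.p6), measured 1183, 369 and 1375 in knockout plus arrays of sets A, B and C, against 2232, 2867 and 2376 in knockout minus arrays. Among controls it measured 1676, 1573 and 1626 in plus arrays, against 3597, 4261 and 2630.2 in minus arrays. Every plus array lay below every minus array of its genotype, and the set B knockout plus array was far below the rest. Gata1 fell in knockouts, with a log2 change of -1.51 ± 0.38 (SE, limma adjusted p = 0.018), which is a 0.351-fold level. In controls the change was -1.06 ± 0.38 with an adjusted p of 0.0635, so it was not called there. It was called in controls without set B (-0.88, adjusted p = 0.00921) and without the knockout plus array of set C (-1.06, adjusted p = 0.0376). The knockout call was lost without the knockout minus array of set B (-1.26, adjusted p = 0.0958), the knockout minus array of set C (-1.59, adjusted p = 0.0552) or all of set A (-1.81, adjusted p = 0.056). Without the knockout plus array of set B the change was -0.86 and stayed called, at an adjusted p of 0.013. Signals of plus and minus arrays did not overlap for 4 members in knockouts and 4 in controls, where 23.6% and 25.1% of all genes did not overlap. As these are bulk RNA levels, fewer cells of a type and less RNA per cell cannot be told apart.

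Gata2, the GATA factor of stem and early progenitor cells and of mast cells (chromosome 6, 88193891 to 88207032), had signals of 3527, 489 and 3946 in knockout plus arrays, against 6433, 6388 and 4642 in knockout minus arrays. In controls they were 4361, 4330.4 and 4349 in plus arrays, against 7642, 8778 and 4801 in minus arrays. The groups did not overlap in either genotype, and the control plus arrays lay close to each other. The log2 changes were -1.57 ± 0.55 in knockouts (adjusted p = 0.0682) and -0.65 ± 0.55 in controls (adjusted p = 0.428), neither of which passed. The knockout change was -0.54 (adjusted p = 0.092) without the knockout plus array of set B and -0.55 (adjusted p = 0.0741) without set B. Without the knockout plus array of set C it was -2.22 and was called (adjusted p = 0.0195). With all arrays kept and centred on their medians it was -1.64 and was called (adjusted p = 0.0414). The second Gata2 probe set measured 341 to 787 in knockout plus arrays and 775 to 1499 in knockout minus arrays, and 763 to 979 in control plus arrays and 1022 to 2076 in control minus arrays.

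Since GATA1 and GATA2 trade places on shared sites, their plus over minus changes were set side by side within each set. Gata1's log2 change minus Gata2's was -0.04, 0.77 and -0.54 in the knockout pairs and -0.28, -0.41 and -0.54 in the control pairs, in set order. By the brighter Gata2 probe set, Gata1 thus had the more negative change in 5 of 6 pairs, the knockout pair of set B being the exception. The second Gata2 probe set changed by -0.58, -2.04 and -0.04 in knockouts and by -0.64, -1.06 and -0.41 in controls. Gata1's own changes were -0.90, -2.85 and -0.77 in knockouts and -1.09, -1.42 and -0.68 in controls, the more negative in every pair. These are single differences per set, with no test.

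Klf1, the CACC-binding activator of red cell genes (chromosome 8, 84901982 to 84905291), measured 545, 234 and 334 in knockout plus arrays, against 1267, 5175 and 1258 in knockout minus arrays. Control arrays gave 1061, 731 and 370.0 in plus arrays, against 2526, 6622 and 1294 in minus arrays. All plus arrays lay below all minus arrays within a genotype, and the 2 highest values were the minus arrays of set B. Klf1 fell in both genotypes, with a log2 change of -2.43 ± 0.51 in knockouts (adjusted p = 0.00842) and -2.02 ± 0.51 in controls (adjusted p = 0.0159). The plus level was 0.186-fold of the minus level in knockouts and 0.246-fold in controls. Per set, the log2 change was -1.17, -4.29 and -1.82 in knockouts and -1.23, -3.12 and -1.72 in controls. The call in knockouts was lost without the knockout minus array of set B (-1.90, adjusted p = 0.051). In controls it was lost without the control minus array of set B (-1.56, adjusted p = 0.0982), the control plus array of set B (-1.75, adjusted p = 0.0857), the control plus array of set C (-1.93, adjusted p = 0.0626) or all of set C (-2.18, adjusted p = 0.0766).

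Zfpm1, the GATA partner FOG1 (chromosome 8, 122281856 to 122337862), measured 2351, 524 and 1263 in knockout plus arrays, against 2487, 3407 and 1465 in knockout minus arrays. In controls it measured 3996, 2439.8 and 1595 in plus arrays, against 3559, 4215 and 1876 in minus arrays. The groups overlapped, and the low value of the knockouts was again the set B plus array. The changes of -0.97 ± 0.42 in knockouts (adjusted p = 0.125) and -0.28 ± 0.42 in controls (adjusted p = 0.67) did not pass. The knockout change was -0.26 (adjusted p = 0.475) without that array. Its other probe set was dim, at 5.45 to 226 over the 12 arrays.

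Tal1, the helix-loop-helix partner of GATA1 (chromosome 4, 115056426 to 115071755), measured 4251, 1669 and 5449 in knockout plus arrays, against 4276, 2726 and 3557 in knockout minus arrays. Among control arrays it measured 5772, 5416 and 5910.2 in plus arrays, against 5905, 3728 and 3576 in minus arrays. Its log2 change was -0.03 ± 0.28 in knockouts, with a 95% interval of -0.64 to 0.58, and 0.41 ± 0.28 in controls, with an interval of -0.20 to 1.02. Plus and minus arrays overlapped in both genotypes. In knockouts the change per set was -0.01, -0.70 and 0.61, so that the sets did not run 1 way.

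Lyl1, the close relative of Tal1 (chromosome 8, 84701423 to 84704716), measured 2171, 2057 and 2196 in knockout plus arrays, against 3253, 7121 and 2441 in knockout minus arrays. In controls the signals were 2296, 5774 and 2204 in plus arrays, against 2548, 4829 and 2269 in minus arrays. The knockout plus arrays lay below all knockout minus arrays and close to each other, while the control groups overlapped. Its change in knockouts was -0.83 ± 0.27 with an adjusted p of 0.0516, which did not pass, and in controls it was 0.02 ± 0.27 (adjusted p = 0.965). In knockouts it was -0.40 (adjusted p = 0.118) without the knockout plus array of set B and -0.36 (adjusted p = 0.115) without set B. It was called there without the control plus array of set B (-0.83, adjusted p = 0.0467) or the knockout plus array of set C (-1.11, adjusted p = 0.0264). Tal1's change minus Lyl1's was 0.57, 1.08 and 0.76 in the 3 knockout sets and 0.12, 0.28 and 0.76 in the 3 control sets, so Tal1 had the more positive change in 6 of 6 pairs.

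Lmo2, the bridging protein of the TAL1 complex (chromosome 2, 103957903 to 103981878), measured 9809, 10829 and 5742 in knockout plus arrays, against 8236, 8903 and 6442 in knockout minus arrays. Control arrays gave 10559, 9782 and 5479 in plus arrays, against 8599.8, 13883 and 7029.9 in minus arrays. Set C was the low set in every group, and the plus and minus arrays overlapped. The changes were 0.12 ± 0.17 in knockouts (interval -0.25 to 0.49) and -0.19 ± 0.17 in controls (interval -0.56 to 0.18).

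**Figure D2:**
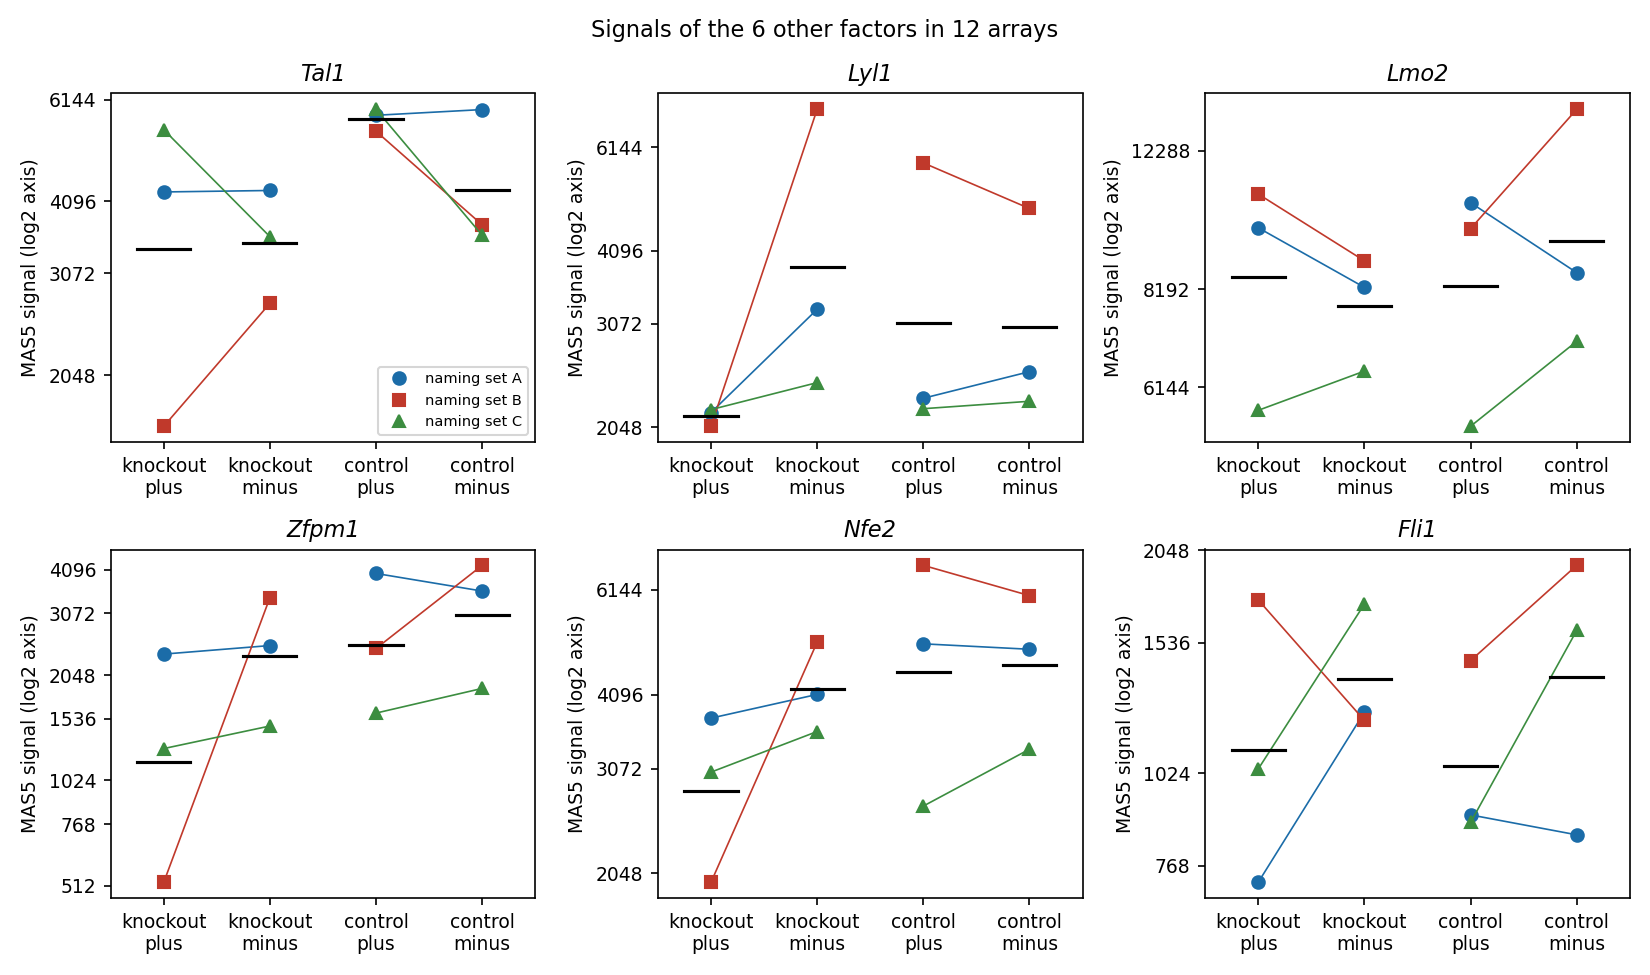
MAS5 signals (log2 axis) of the other 6 members, drawn as in the plot of Klf1, Gata1, Gata2 and Gfi1b. Points of Tal1, Lmo2, Zfpm1, Nfe2 and Fli1 overlap between plus and minus in both genotypes, and Lyl1 in knockouts lies at 2057 to 2196 in plus arrays and 2441 to 7121 in minus arrays.

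Nfe2, the megakaryocyte and red cell factor that pairs with small MAF proteins (chromosome 15, 103248212 to 103258403), measured 3738, 1978 and 3032 in knockout plus arrays, against 4098, 5018 and 3549 in knockout minus arrays. In controls it measured 4986, 6759 and 2658 in plus arrays, against 4882, 6011 and 3313 in minus arrays. The groups overlapped in both genotypes, and the lowest value was the knockout plus array of set B. Neither the knockout change of -0.56 ± 0.29 (adjusted p = 0.195) nor the control change of -0.04 ± 0.29 (adjusted p = 0.941) passed. The knockout change was -0.10 (adjusted p = 0.743) without that array.

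Gfi1b, a repressor needed for both lineages (chromosome 2, 28609450 to 28621982), measured 4229, 1693 and 5182 in knockout plus arrays, against 1196, 2516 and 1820.2 in knockout minus arrays. Among control arrays it measured 5242, 4700.1 and 4350.1 in plus arrays, against 1559, 1495 and 1414 in minus arrays. In controls all plus arrays lay above all minus arrays, while in knockouts set B went the opposite way and the groups overlapped. Gfi1b rose in controls by 1.65 ± 0.36 on the log2 scale (adjusted p = 0.00768), a 3.15-fold level, with changes of 1.73, 1.63 and 1.60 in the 3 sets. In knockouts the change was 0.91 ± 0.36 (adjusted p = 0.0996), made of 1.80, -0.56 and 1.49 per set. It was called there without the knockout plus array of set B (1.47, adjusted p = 0.00268) or its minus partner (1.32, adjusted p = 0.0438), and the control call was lost without set C (1.68, adjusted p = 0.0602). Gfi1, its paralogue and chosen here after its values were seen, moved the other way, with a log2 change of -1.11 in knockouts (adjusted p = 0.0425) and -1.17 in controls (adjusted p = 0.0305).

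Fli1, the ETS factor of megakaryocytes (chromosome 9, 32422204 to 32543432), measured 729, 1754 and 1037 in knockout plus arrays, against 1237, 1206 and 1731 in knockout minus arrays. In controls the signals were 899, 1452 and 878 in plus arrays, against 845, 1953 and 1595 in minus arrays. Plus and minus arrays overlapped in both genotypes, with changes of -0.31 ± 0.27 (adjusted p = 0.451) in knockouts and -0.39 ± 0.27 (adjusted p = 0.325) in controls. Without set B the knockout change was -0.73 and was called (adjusted p = 0.0432). Its second probe set measured 234 to 1063 in knockout plus arrays and 389 to 2372 in knockout minus arrays, and 405 to 1012 in control plus arrays and 788 to 1634 in control minus arrays. KLF1 and FLI1 are known to oppose each other in the choice between red cells and megakaryocytes. Klf1's log2 change minus Fli1's was -0.43, -4.82 and -1.10 in the 3 knockout sets and -1.31, -2.70 and -0.88 in the 3 control sets, below 0 in 6 of 6 pairs. Klf1 had already been called lower in both genotypes, and Fli1 was not higher in either. The second Fli1 probe set changed by -1.17 in the knockout pair of set A, the same as Klf1's -1.17. In the other pairs Klf1's change was the more negative. Whether the 2 factors opposed each other here was not tested.

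**Figure D3:**
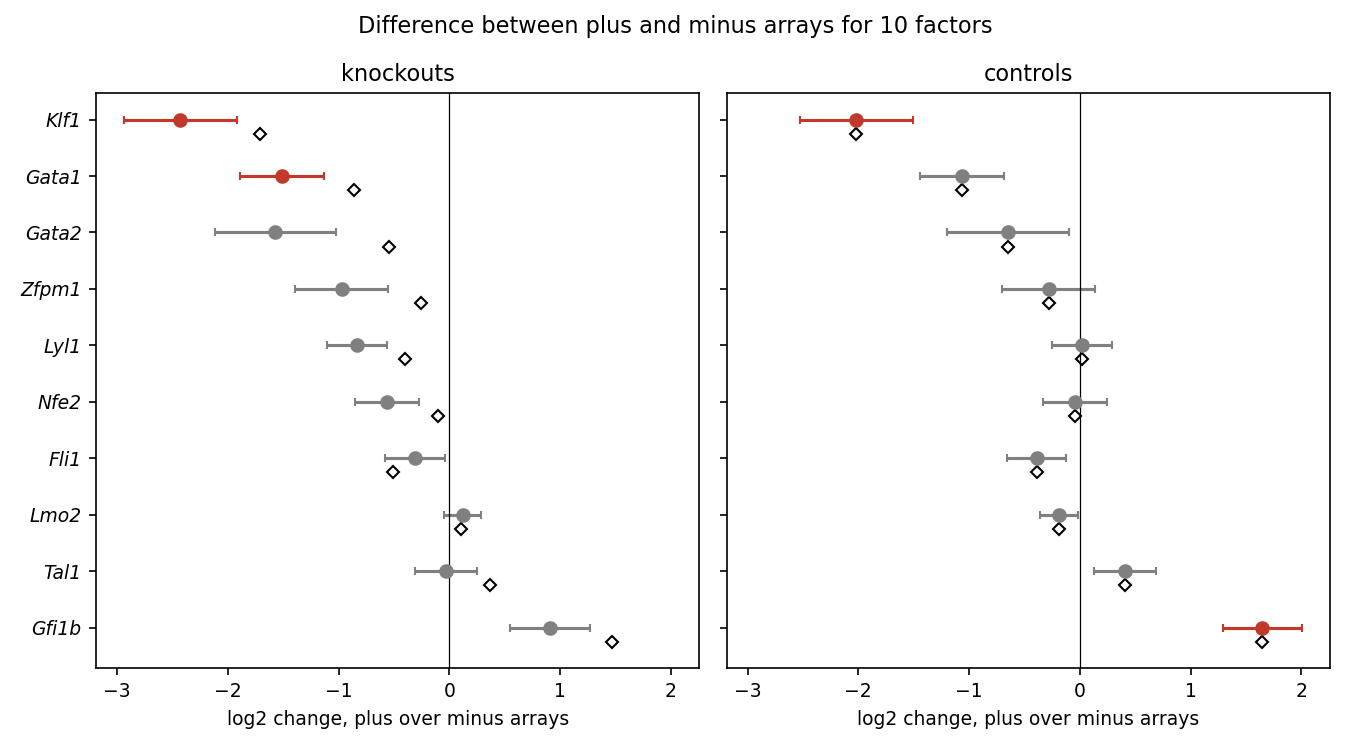
Log2 change of plus over minus arrays for the 10 members in knockouts and in controls, with SE bars, red where the limma adjusted p is under 0.05. Klf1 is lowest at -2.43 in knockouts and -2.02 in controls, Gfi1b is highest at 0.91 and 1.65, and open diamonds give the values without the knockout plus array of set B.

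Leaving out the knockout plus array of set B changed which members were called. Without it, the knockout change of Gata1 was -0.86 (adjusted p = 0.013), that of Klf1 -1.71 (adjusted p = 0.0182) and that of Gfi1b 1.47 (adjusted p = 0.00268), so that 3 members were called there. In controls, Gata1 at -1.06 (adjusted p = 0.00114) and Gata2 at -0.65 (adjusted p = 0.0161) were then called beside Klf1 and Gfi1b. The control changes of Gata1 and Gata2 were also -1.06 and -0.65 with all arrays, so only their adjusted p moved. The number of all genes called in controls rose as well, from 2344 with all arrays to 3450. In knockouts it went from 1985 to 1830. The beta-actin ratio moves with the plus label and with set B. With that ratio as a covariate no member was called in knockouts, where Klf1 had -2.55 (adjusted p = 0.09) and Gata1 -0.95 (adjusted p = 0.337), and Tal1 alone was called in controls, at 1.09 (adjusted p = 0.0421). Of all genes, 650 were called in knockouts and 1519 in controls with that covariate, against 1985 and 2344 in the fit without it.

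The mean of the plus versus minus changes over both genotypes was added after seeing the data. By that mean, the log2 change was -2.23 ± 0.36 for Klf1 (adjusted p = 0.000667), -1.29 ± 0.27 for Gata1 (adjusted p = 0.00297) and -1.11 ± 0.39 for Gata2 (adjusted p = 0.0421), all lower, and Gfi1b rose by 1.28 ± 0.26 (adjusted p = 0.00234). The other 6 members did not pass, and 38% of all genes did. Without the knockout plus array of set B, 42.6% of all genes were called and Tal1 joined the 4 members, at 0.39 (adjusted p = 0.0453). Without the whole of set B, 45.7% were called, with Klf1 at -1.48, Gata1 at -0.86, Gata2 at -0.51 and Gfi1b at 1.65 among them, and Fli1 at -0.55 (adjusted p = 0.0199).

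The loss of Stat5a and Stat5b was compared within plus arrays and within minus arrays. No member was called in either comparison by limma, against 0.0189% of all genes in each, which is 2 genes. The members' median log2 difference was -0.70 in plus arrays and -0.26 in minus arrays, beside -0.04 and -0.014 over all genes. At an unadjusted p under 0.05, 4 of 10 members passed in plus arrays, where 9.81% of all genes did, and 0 in minus arrays, where 2.36% did. In plus arrays Zfpm1 had a log2 difference, knockout minus control, of -1.08 ± 0.42 (unadjusted p = 0.0242), Gata1 of -0.91 ± 0.38 (0.0331), Tal1 of -0.74 ± 0.28 (0.0216) and Nfe2 of -0.66 ± 0.29 (0.0423), all with an adjusted p of 0.507. Gata1, Gata2 and Lyl1 signals in knockout plus arrays all lay below those in control plus arrays, where 5.66% of all genes did not overlap in either direction, and in minus arrays none did, against 4.32%. For Lyl1 the nearest signals were 2196 in a knockout and 2204 in a control. The second Gata2 probe set did overlap, at 341 to 787 in knockout plus arrays and 763 to 979 in control plus arrays. Without the knockout plus array of set B the differences were -0.36 for Zfpm1, -0.26 for Gata1, -0.34 for Tal1 and -0.20 for Nfe2, the members' median was -0.14 and 0 members were under the unadjusted threshold in plus arrays. Without the control plus array of set B the median was -0.48, again with 0 members under that threshold.

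**Figure D4:**
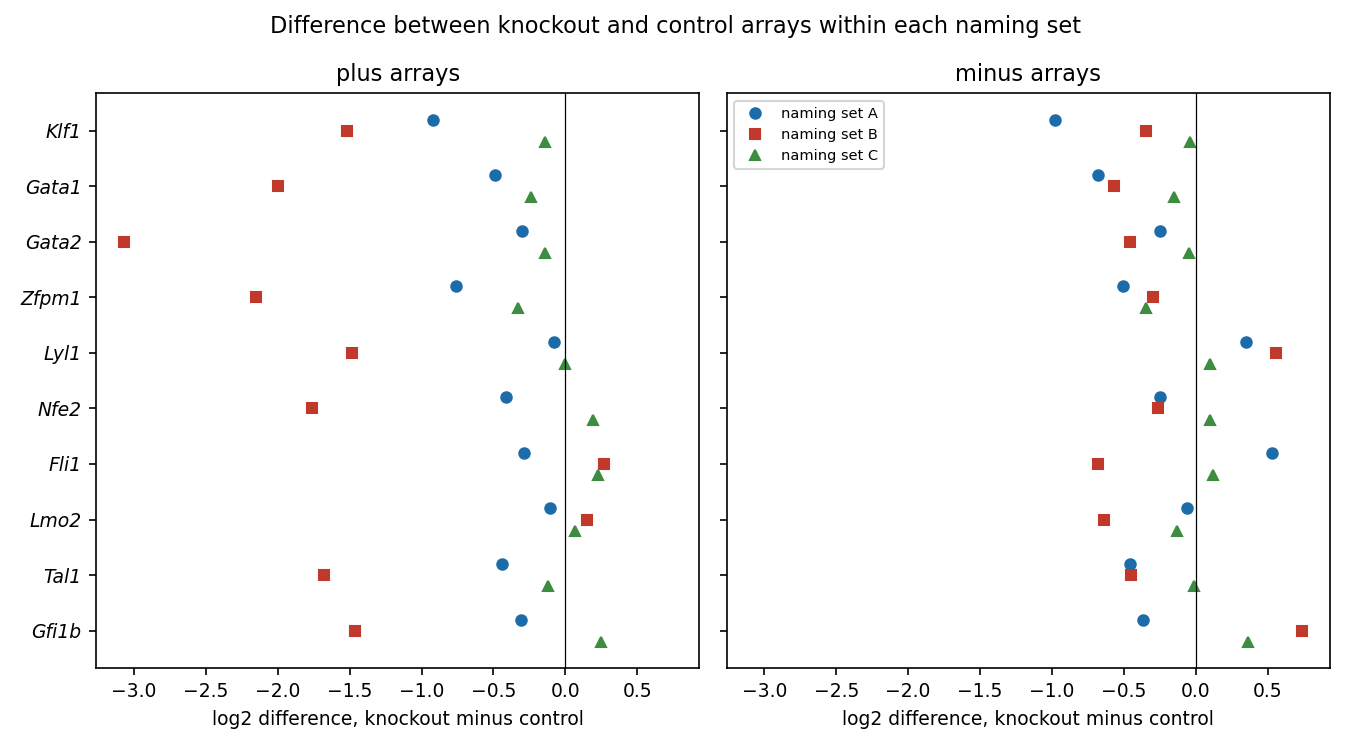
Log2 difference, knockout minus control, for the 10 members within each naming set, 1 point per set, in plus arrays (left) and minus arrays (right). In plus arrays the set B points of Gata2 (-3.07), Zfpm1 (-2.15) and Gata1 (-2.00) lie far below those of sets A and C.

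The interaction, which asks whether the knockout difference changed with the plus label, was called for 0% of genes and for no member. At an unadjusted p under 0.05 stood 1 of 10 members, beside 2.11% of all genes, namely Lyl1 at -0.86 ± 0.38 (unadjusted p = 0.0461, adjusted p = 0.954). Its value was -0.42 (adjusted p = 0.999) without the knockout plus array of set B.

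Lists of related genes were read beside the members. Their counts stand against 18.8% of all genes called in knockouts and 22.1% in controls, which is 1985 and 2344 of 10583 genes. Without the knockout plus array of set B, 1830 and 3450 genes were called. Without the knockout minus array of set B the numbers were 1000 and 2400. Without the whole of set B they were 2648 and 3074, and with the actin ratio as a term 650 and 1519. Among cofactors and dimer partners, 1 was higher and 2 were lower of 21 in knockouts, and 1 was higher and 1 lower in controls, with medians of -0.01 and 0.11. Mafg, the small MAF partner of NFE2, rose by 1.37 ± 0.34 in knockouts (adjusted p = 0.0167) and by 1.87 in controls (adjusted p = 0.00291), with signals of 981 to 4605 in knockout plus arrays and 675 to 1411 in knockout minus arrays. Tcf3, the E protein that TAL1 pairs with, fell by 1.41 in knockouts (adjusted p = 0.0211), at 237 to 1432 in knockout plus arrays and 1377 to 2704 in knockout minus arrays, and had a change of -0.85 in controls (adjusted p = 0.116). Ssbp4 fell by 1.01 in knockouts (adjusted p = 0.0148), and Hdac2 fell by 0.75 in controls (adjusted p = 0.0156). Leaving out the knockout plus array of set B gave 3 higher and 3 lower in knockouts, and 4 higher and 5 lower in controls. Without the whole of set B, 4 were higher and 4 lower in knockouts, and 7 higher and 4 lower in controls. Without the knockout minus array of set B, 0 were called in knockouts.

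Among 17 tested related and opposing factors, 4 were higher and 1 lower in knockouts, and 4 higher and 2 lower in controls, with medians of 0.28 and 0.42. Bach2, a BTB repressor, rose by 2.06 in knockouts (adjusted p = 0.000182) and by 2.03 in controls (adjusted p = 0.000172), with 1569 to 3725 in knockout plus arrays and 347 to 884 in knockout minus arrays. Klf3, a KLF repressor that shares CACC sites with KLF1, rose by 2.11 in knockouts and 1.73 in controls (adjusted p = 0.00023 and 0.000608). Bach1, a repressor that also pairs with small MAF proteins, rose by 1.19 in knockouts and 1.27 in controls (adjusted p = 0.00486 and 0.00272). Nfe2l2, the relative of Nfe2 known for oxidative stress responses, rose by 0.76 in knockouts (adjusted p = 0.00622) and had 0.42 in controls (adjusted p = 0.0656). When the knockout plus array of set B was left out, 8 were higher and 2 lower in controls, and the knockout counts were again 4 and 1. Gata3, Zfpm2, Tal2 and Nfe2l3, relatives of members, did not pass the filter.

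Of 27 tested erythroid genes, 2 were higher and 12 lower in knockouts, and 2 higher and 10 lower in controls, with medians of -0.83 and -0.64. Kel, a blood group protein, fell, with a log2 change of -1.85 in knockouts and -2.05 in controls (adjusted p = 0.00069 and 0.000302). Icam4, the LW blood group protein, fell likewise, with -1.78 in knockouts and -2.13 in controls (adjusted p = 0.00136 and 0.000415). Rhd, a Rhesus protein, had -1.20 in knockouts and -1.82 in controls (adjusted p = 0.0129 and 0.00128). Car1, a carbonic anhydrase, had -3.74 in knockouts and -3.50 in controls (adjusted p = 0.00156 and 0.00189), with signals of 203 to 574 in knockout plus arrays and 2529 to 12184 in knockout minus arrays. Without the knockout plus array of set B the counts were 2 higher and 7 lower in knockouts and 3 higher and 15 lower in controls. Without the knockout minus array of set B they were 1 and 7 in knockouts and 2 and 11 in controls, and without the whole set 2 and 10 in knockouts and 1 and 11 in controls. With the actin ratio as a term they were 0 and 3 in knockouts and 0 and 7 in controls. The summed signal of the 37 erythroid genes on the array was 22452 to 35317 in knockout plus arrays and 42301 to 62766 in knockout minus arrays, and 29616 to 45652 in control plus arrays and 44352 to 91420 in control minus arrays. Sums of linear signals, here and in the lists below, weigh the brightest genes most, such as Car1 at 3132 to 21113 in control minus arrays. Several late red cell genes did not pass the filter on low values, namely Alas2 at 74.3 at most in any array, Hba-a1 at 102, Hbb-b2 at 44.4 and Slc4a1 at 187. The alpha globin gene Hba-a2 did pass, at 90.3 to 242 in knockout plus arrays and 58.9 to 997 in knockout minus arrays, and at 109.8 to 204 in control plus arrays and 79.3 to 1037 in control minus arrays. Its changes of -0.65 in knockouts (adjusted p = 0.451) and -0.40 in controls (adjusted p = 0.647) were not called.

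**Figure D5:**
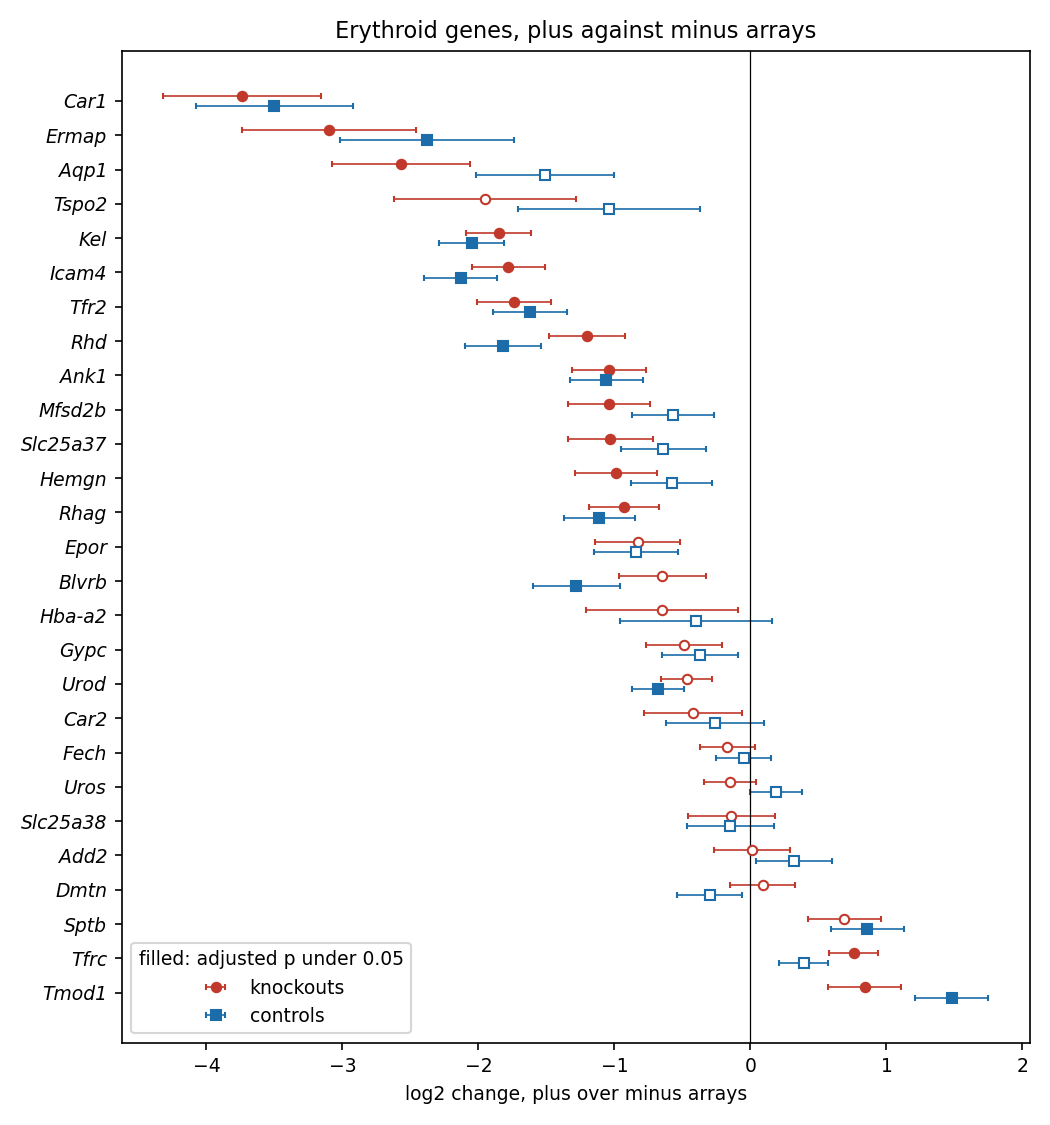
Log2 change of plus over minus arrays for erythroid genes in knockouts and controls, with SE bars, filled where the limma adjusted p is under 0.05. Most called genes lie below 0, while Tfrc and Tmod1 are called higher in knockouts, and Tmod1 and Sptb in controls.

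Of 19 tested megakaryocyte genes, 2 were higher and 4 lower in knockouts, and 3 higher and 3 lower in controls, with medians of -0.17 and -0.44. In controls the platelet adhesion receptor subunits Gp5 and Gp9 fell, with log2 changes of -1.74 and -1.25 (adjusted p = 0.000474 and 0.00512). The integrin subunit Itgb3 and the platelet signalling protein Plek rose there, by 1.60 and 1.10 (adjusted p = 0.00395 and 0.00547). All 4 were called in the same direction in knockouts. The counts were 2 higher and 3 lower in knockouts, and 6 higher and 5 lower in controls, without the knockout plus array of set B. Without the knockout minus array of set B, 1 was higher and 2 lower in knockouts, and without the whole set 3 were higher and 5 lower in controls. With the actin ratio as a term the control median was 0.07.

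Markers of other blood cells were read as well. None of their lists held a called gene between knockout and control, where only 2 of all 10583 genes were called in each comparison. Of 9 tested mast cell and basophil genes, 2 were lower in knockouts and 1 in controls, with Cpa3, a mast cell protease, at -1.92 in knockouts (adjusted p = 0.00141) and -2.02 in controls (adjusted p = 0.00095). Mcpt8, a basophil protease, was lower in knockouts, at -1.07 (adjusted p = 0.0267), and had -0.85 in controls (adjusted p = 0.0571). Without the knockout plus array of set B, 1 was higher and 1 lower in knockouts and 5 were lower in controls, and without the whole set 1 was higher and 1 lower in knockouts and 2 were lower in controls. Without the knockout minus array of set B, 1 was lower in knockouts. The summed signal of the list was 2826 to 18907 in knockout plus arrays and 10078 to 17949 in knockout minus arrays, and 6973 to 14435 in control plus arrays and 11310 to 18509 in control minus arrays. Of 17 tested granulocyte and monocyte genes, 1 was higher and 2 lower in knockouts, and 2 were higher and 2 lower in controls.

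The granulocyte and monocyte sum was 73582 to 127303 in knockout plus arrays and 75036 to 225455 in knockout minus arrays, and 51415 to 209327 in control plus arrays and 60503 to 230321 in control minus arrays. The list's medians were -0.60 in knockouts and -0.41 in controls, and its called genes went both ways. Cd14, a monocyte receptor, rose by 1.85 in knockouts and 2.03 in controls (adjusted p = 0.00779 and 0.00395). Fcgr3, an Fc receptor subunit, rose by 1.48 in controls (adjusted p = 0.0259) and had -0.16 in knockouts (adjusted p = 0.823). Camp, a granule antimicrobial protein, had a log2 change of -1.47 in knockouts (adjusted p = 0.0331), where it was lower, and -0.77 in controls (adjusted p = 0.213). Ctsg, the granule protease cathepsin G, had -0.97 in controls (adjusted p = 0.0277), where it was lower, and -0.53 in knockouts (adjusted p = 0.203). Prtn3, another granule protease, was lower in both genotypes, at -0.60 in knockouts and -0.61 in controls (adjusted p = 0.0494 and 0.0404). Without the knockout plus array of set B the list had 1 higher and 0 lower in knockouts and 3 higher and 3 lower in controls, and without the knockout minus array of set B 1 higher and 0 lower in knockouts. Without the whole of set B it had 1 higher and 1 lower in knockouts and 2 higher and 3 lower in controls. With the actin ratio as a term the medians were -0.09 in knockouts and 0.08 in controls.

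Thy1 was lower in knockouts, at -0.92 (adjusted p = 0.0348), among 3 tested lymphoid genes, and was not called without the knockout plus or the knockout minus array of set B. The 1 tested eosinophil gene did not pass. Of the genes on the array, only 3 of 12 lymphoid and 1 of 6 eosinophil ones passed the filter on low values. The part of these markers in the members' changes was not tested.

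By the root mean square difference of set-centred log2 values over 12 arrays, the tested genes most like Klf1 were Aqp1 at 0.36 and St8sia6 and Dnah8 at 0.37 each, where Klf1's own values spread by 1.31. Those most like Gata1 were Slc25a1 at 0.18, Prickle1 at 0.20 and Vamp5 at 0.22, beside an own spread of 0.85. Those most like Gfi1b were Mxd1 and Smad7 at 0.24 and Pea15a at 0.25, beside an own spread of 0.78. All these differences include the knockout plus array of set B, where Gata1 measured 369, against 1573 to 4261 in the other set B arrays. Likeness without that array was not computed.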

How the data were processed

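RNA of 12 samples was hybridised to 1-colour Affymetrix arrays. The authors deposited linear intensity signals per probe set made with MAS5, per the submitters' processing notes, with no version given in the sources used here. The deposited table was used as it stands, since the trimmed mean (2% off each end) was 500 in every array. The supplied annotation gave 34958 probe sets 1 symbol, 932 several and 9211 were not listed. Signals were taken as log2(signal + 32), each gene by its brightest probe set, and genes with a mean under 6.76 were left out. limma 3.58.1 in R 4.3.3 (eBayes with trend, two-sided, Benjamini-Hochberg over 10583 genes, 0.05) fitted the 4 groups with the naming set as a block, with 6 residual and 5.78 prior degrees of freedom. Groups were taken from titles. The fit was tested on simulated data. Named genes were all members, up to 4 called genes per list with the smallest p, and the 3 genes most like each called member. Other genes named in the text (Gfi1, Prtn3, Tfrc, Tmod1, Sptb, those that failed the filter, and Hba-a2) were chosen after their values were seen. Members and lists were chosen with earlier results of these data known. Arrays carry no counts, so precision is set by their number, 3 per group.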

Additional observations from a re-analysis of the deposited data

Results flagged for a closer look

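The estimated knockout difference of Lyl1 had opposite signs in plus and minus arrays, with neither difference called. It was -0.52 ± 0.27 in plus arrays (limma unadjusted p = 0.0804) and 0.34 ± 0.27 in minus arrays (limma unadjusted p = 0.24). Its interaction, the knockout minus control difference in plus arrays less that in minus arrays, was -0.86 ± 0.38 on the log2 scale (unadjusted p = 0.0461, limma adjusted p = 0.954). In minus arrays knockouts were above controls in 3 of 3 sets, by 0.35, 0.56 and 0.10. In plus arrays the differences were -0.08, -1.48 and 0.00. Signals in set C were 2196 in the knockout and 2204 in the control, so the lower level in plus arrays lay mainly in set B. The interaction is not called after adjustment, and without the knockout plus array of set B it was -0.42.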

How the results depend on the processing

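Over 28 settings no called member changed direction. Klf1 was called in 24 of 28 settings in knockouts and 22 in controls, Gata1 in 21 in knockouts and Gfi1b in 26 in controls. No member was called for knockout against control or the interaction in any setting. The number of members called in knockouts, 2, was 4 with arrays centred on medians, 0 with only the arrays of the comparison, 1 with the array of conflicting labels as a control, 5 with array weights, 0 with the beta-actin ratio added and 1 to 4 with arrays or sets left out (1 without set A or the knockout minus array of set B or C, 4 without set B or the knockout plus array of set C). In controls, 2, it was 4 with only the arrays of the comparison, 4 with array weights, 1 with the beta-actin ratio and 0 to 4 with arrays or sets left out (0 without set C, 1 without the control minus array of set B or the control plus array of set B or C, 4 without the knockout plus array of set B). Without the replicate block (the naming set), 0 members were called in knockouts and 1 in controls. The number of all genes called also moved. In knockouts it was 1985 with the settings described, 662 with only the arrays of the comparison and 4008 with array weights. It was 650 there with the beta-actin ratio and 298 without the block. In controls these numbers were 2344, 2592, 4151, 1519 and 470. Members and all genes did not always move together. Median centring gave 4 members but 1918 of all genes in knockouts. Same-set arrays correlated in their deviations at 0.41 to 0.77, and the labels give no other pairing. In the plus versus minus comparisons, uncalled values that turned sign were Tal1 in knockouts (0.03 with quantile normalization, 0.03 with the conflicting array as a control, 0.23 with array weights, 0.70 with the actin ratio, -0.40 to 0.37 with arrays left out), Lmo2 in knockouts (-0.06 with the actin ratio) and, in controls, Lyl1 (-0.17 median-centred, -0.13 with the conflicting array as a control, -0.02 with array weights, -0.18 to 0.15 with arrays left out), Nfe2 (0.01 with quantile normalization, 0.33 with the actin ratio, -0.31 to 0.23 with arrays left out), Zfpm1 (0.09 with the mean of probe sets, -0.51 to 0.05 with arrays left out) and Gata2 (0.39 with the actin ratio). Further values turned sign, none of them called: 13 of 280 for knockout against control in minus arrays, 12 of 280 in plus arrays and 18 of 270 for the interaction. The causes were not tested.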
